A study of Mus musculus with 12 samples.

Results

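The cell proliferation genes described here are 34 genes that act in DNA replication, mitosis and the passage between them. They were chosen by name, and all 34 were found among the 49492 genes of the deposited count table. The deposited peak table held 102 peaks on these genes among 42989 in all. The samples were mouse skin, 3 labelled as control and 3 labelled as exposed to UV light, numbered 1 to 3 in each condition. Each sample gave 2 libraries: an IP library of RNA bound by an antibody to N6-methyladenosine (m6A), and an input library. For strain, age, sex, the kind, dose and timing of UV and any handling of the control skin, the sources used here give nothing. The labels do not state that the samples came from separate animals, so p-values measure only the spread between these samples. The title names the m6A writer subunit KIAA1429 and the matrix protein MFAP4 in photoaging, and no genotype or agent other than UV is labelled.

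A dividing cell makes these transcripts in waves. Before and during DNA replication it makes cyclin E, the MCM helicase and the enzymes of deoxynucleotide supply, largely under E2F transcription factors. Cyclin B, the mitotic kinases, the spindle motors and the kinetochore proteins follow in G2 and mitosis, where the MuvB complex with B-MYB and FOXM1 acts through promoter elements that include the cell cycle homology region. In skin, most dividing cells are in the basal epidermis, the hair follicle and the sebaceous gland rim. m6A is a methyl mark placed on adenosines of messenger RNA, often near stop codons and in long internal exons, by a writer complex that contains METTL3, METTL14, WTAP and KIAA1429. Bulk skin holds many cell types, so fewer dividing cells and less RNA per cell cannot be told apart here.

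The promoter elements of both waves were visible in the members' sequences. RefSeq promoter windows (GRCm38.p6, 250 bases before and 50 after the start site) were matched for 27 of the 34 members. The CCAAT box, bound by NF-Y, was present on either strand in 22 of these members (81.5%), against 37.4% of 32851 promoters of the same length. The letters TTTGAA, a core of the cell cycle homology region, were present in 13 members (48.1%, against 17.9% of all promoters), of which 8 were among the 12 with a promoter in the kinase, anaphase and spindle groups and 1 was among 9 members of replication and nucleotide supply. An E2F site, searched as TTGGCGC or TTCCCGC, was present in 9 members (33.3%, against 6.81%): 6 of the 9 replication and nucleotide members and 0 of those 12. The other members with an E2F site were Ccnb1, Cdk1 and Mki67, of the cyclin and chromosome groups. TTGGCGC alone was in 7 members (25.9%, against 2.45%) and TTCCCGC in 4 (14.8%, against 4.6%). CCAAT and TTGGCGC shared bases in 2 members, Ccnb1 and Mcm7. Birc5, Ccne1, Nusap1 and Tyms held none of the 4 strings in this window, which says only that these letters are not there.

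Sequence before the start site is shown for 4 members: Ccne1, the member called in UV input; Mcm6, a helicase subunit with E2F letters; and Cdk1 and Mki67, which hold both kinds of element. Each runs 5′ to 3′ along the gene's own strand, and those of Ccne1 and Cdk1 stop where the first exon of the count table begins. Letters are in lower case, with the CCAAT box, the TTTGAA string, the TTGGCGC site and their reverse complements in capitals.
Ccne1 (chr7:38107535-38107740, minus strand): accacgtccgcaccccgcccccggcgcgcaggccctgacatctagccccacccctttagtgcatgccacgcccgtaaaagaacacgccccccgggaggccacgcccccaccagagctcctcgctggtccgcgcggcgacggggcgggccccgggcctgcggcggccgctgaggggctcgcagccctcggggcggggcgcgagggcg
Mcm6 (chr1:128359706-128359955, minus strand): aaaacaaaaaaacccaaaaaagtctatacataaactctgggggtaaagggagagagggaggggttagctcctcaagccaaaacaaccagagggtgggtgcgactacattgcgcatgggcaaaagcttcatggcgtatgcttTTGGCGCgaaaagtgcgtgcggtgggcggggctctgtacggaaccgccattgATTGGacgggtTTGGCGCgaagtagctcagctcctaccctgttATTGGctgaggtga
Cdk1 (chr10:69352939-69353162, minus strand): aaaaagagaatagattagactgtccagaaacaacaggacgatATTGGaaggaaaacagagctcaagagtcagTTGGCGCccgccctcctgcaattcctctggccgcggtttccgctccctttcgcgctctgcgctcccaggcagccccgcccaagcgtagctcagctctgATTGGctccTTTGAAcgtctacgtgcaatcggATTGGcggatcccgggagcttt
Mki67 (chr7:135716380-135716629, minus strand): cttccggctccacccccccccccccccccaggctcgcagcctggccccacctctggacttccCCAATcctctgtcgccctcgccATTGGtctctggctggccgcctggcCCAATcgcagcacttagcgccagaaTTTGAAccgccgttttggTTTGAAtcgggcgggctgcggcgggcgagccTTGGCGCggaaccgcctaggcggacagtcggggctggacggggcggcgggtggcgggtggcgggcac
Mcm6 held TTGGCGC at positions −109 and −46 from the start site. In Cdk1 it lay at −178, upstream of TTTGAA at −71 and −15, of which the latter lies in the counted first exon, outside the printed stretch. In Mki67 the order was the other way, with TTTGAA at −116 and −98 and TTGGCGC at −67. The Ccne1 stretch was rich in G and C and held no capital letters.

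Between 24126662 and 92163619 reads per library fell in genes, and keratin and collagen genes of skin were abundant in every input library (Krt5 at 1674 to 3699 CPM, reads of a gene scaled to a common library size, and Col1a1 at 2353 to 4031 CPM). Genes of 9 marker lists were counted, to be read against the 5.83% of all genes called in input. Of 10 sebocyte markers 7 were called higher, and their summed input level was 1216 to 1608 CPM in control and 2280 to 2694 CPM in UV. Skeletal muscle markers summed to 6403 to 14799 CPM in control and 2586 to 7334 CPM in UV, with 2 of 12 called lower. T cell markers summed to 23.6 to 28.4 CPM against 13.6 to 15.1 CPM, with 3 of 10 tested called lower and none higher. Hair markers ran from 35932 to 75900 CPM in control and from 22098 to 53976 CPM in UV, with 2 of 25 called lower, near the share of all genes. Basal keratinocyte markers summed to 5233 to 10320 CPM in control and 10280 to 15080 CPM in UV, with 1 of 8 called higher and 1 lower. Fibroblast markers summed to 8877 to 9766 CPM against 6282 to 7355 CPM, with 3 of 10 called lower. Suprabasal keratinocyte markers summed to 32977 to 84618 CPM against 58880 to 94680 CPM, with a list median of log2 0.09. Of these 10, 2 were called lower in every alternative, Krt77 (log2 −3.73, edgeR adjusted p = 0.00208) and Flg2 (−1.35, 0.00491). Myeloid markers summed to 174 to 237 CPM against 158 to 175 CPM, with 2 of 10 called lower. No endothelial marker was called. The summed levels of muscle, hair, basal, suprabasal and myeloid markers overlapped between the conditions. In at least 1 alternative each, the muscle, hair, fibroblast, basal and myeloid lists had no marker called lower. No listed marker was at 0 in all input libraries, and the part of these differences in the results below was not tested.

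The levels of the members in skin covered a wide range. Per kilobase of exon, the mean input level over the 6 input libraries was 94.1 CPM for Mki67, the Ki-67 protein that coats mitotic chromosomes, and 31.7 CPM for Top2a, the topoisomerase that untangles sister chromatids. Cenpe, a kinetochore motor, followed at 18.1 CPM per kilobase and Mcm3, a subunit of the replicative helicase, at 17.5 CPM per kilobase. These neighbours in the order were close: Mcm3 was at 15.1 CPM per kilobase in control and 19.8 in UV, on either side of Cenpe in its conditions (17.3 and 18.8). The lowest members were Cdc6, the loader of the helicase, at 1.47, Bub1, a checkpoint kinase, at 1.55 and Ccne1 at 2.33 CPM per kilobase.

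Ube2c, the ubiquitin-conjugating enzyme of the anaphase-promoting complex, stood highest at 141 CPM per kilobase, but its reads could not be assigned to it. In the count table Ube2c (chromosome 2, plus strand, GRCm38) ends with an exon at chr2:164777190-164778822 of 1633 bases, while RefSeq ends the gene at base 164772902. That last exon overlaps 5 exons of Tnnc2, the troponin C of fast skeletal muscle, on the opposite strand, and shares 592 bases with them, 74.0% of the exon length of Tnnc2. In all 12 libraries the reads of Ube2c and Tnnc2 differed by at most 1.93%, from 7382 against 7242 reads in UV input sample 2 to 39043 against 39712 in control IP sample 2. The only Ube2c peak, called in both arms, lies at chr2:164778195-164778344 inside the same exon. Whether the counting used strand is not stated, and the 2 genes cannot be told apart in these counts. Other members also overlap a neighbour on the opposite strand: Kif20a shares 33.2% of its exon length with Cdc23 and Mcm7 7.25% with Ap4m1.

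**Figure D1:**
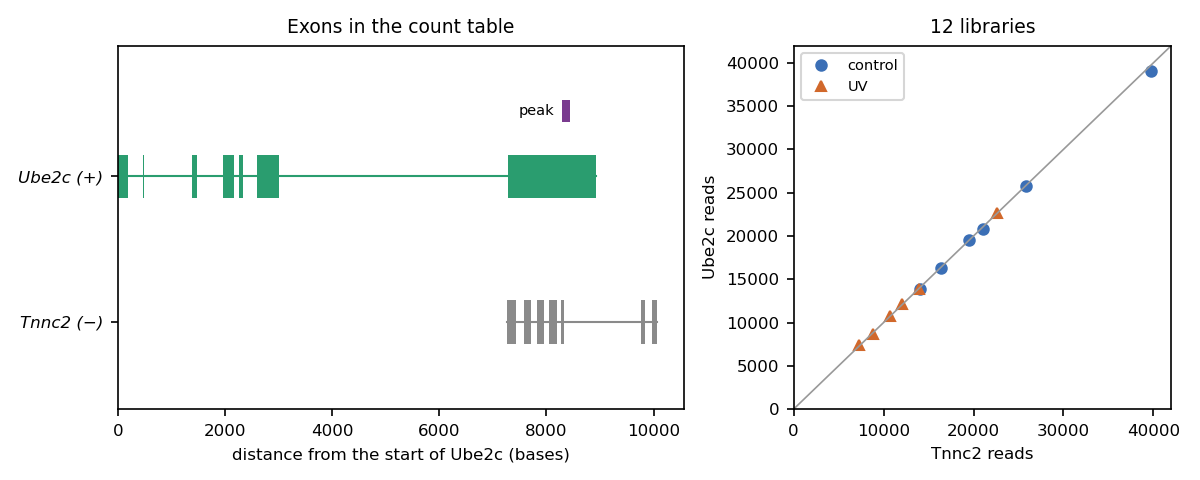
Left: exons of Ube2c and Tnnc2 as counted, by distance in bases from the start of Ube2c, with the Ube2c peak above. Right: reads of Ube2c against reads of Tnnc2, 1 point per library (6 control, 6 UV), with the line of equal counts, on which all 12 libraries lie within 1.93%.

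Input libraries give transcript abundance, and the first question is which members differed between UV and control skin. In edgeR's quasi-likelihood test with Benjamini-Hochberg adjustment over 24099 genes, 1 of 34 members was called, against 5.83% of all genes tested. The median log2 change was 0.09 over the 34 members and −0.02 over all genes tested. The 33 members without Ube2c summed to 2361, 2462 and 2281 CPM in the 3 control samples and to 2460, 2788 and 2408 CPM in the 3 UV samples. These sums overlapped between the conditions. Mki67 alone gave 861 to 1074 CPM of them. With Mki67 also left out, the sums were 1442, 1465 and 1420 CPM in control and 1553, 1713 and 1484 CPM in UV. Those did not overlap, but narrowly, with 1465 CPM the highest in control and 1484 CPM the lowest in UV. No test was made of the sums, and they were made under the main scaling only. With library size as the only scaling the median log2 change of the members was −0.01.

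Ccne1, which encodes cyclin E1, the partner of CDK2 at entry into S phase, was the member called. Its input level was 4.67, 4.47 and 4.49 CPM in control and 8.18, 7.49 and 7.87 CPM in UV. Every UV sample was above every control sample. The level rose 1.72-fold (log2 0.79 ± 0.11 SE, edgeR adjusted p = 0.00921, n = 3 per group). Without UV sample 1 the log2 change was 0.76 and edgeR's adjusted p 0.052, the highest over the 11 alternatives run. Ccne2, the gene of cyclin E2, was at 13.0, 17.1 and 15.8 CPM in control and 16.3, 13.8 and 14.2 CPM in UV, with a log2 difference of −0.05 (95% interval −0.33 to 0.24).

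The 7 genes that license and unwind replication origins had a median log2 difference of 0.23, with 6 above 0 and none called. Mcm3 was at 50.6, 64.7 and 54.7 CPM in control and 73.9, 80.7 and 68.7 CPM in UV. The UV samples were all higher than the control samples, by a log2 difference of 0.40 ± 0.11 SE (edgeR adjusted p = 0.0711). Mcm4, another subunit of the same ring, had 0.41 ± 0.12 SE (edgeR adjusted p = 0.0802) and Mcm5 had 0.34 ± 0.11 SE (edgeR adjusted p = 0.105). Mcm7 had 0.09, with an interval from −0.11 to 0.30. Cdc6 lay on the other side, at 8.16, 8.13 and 8.70 CPM in control and 7.16, 7.18 and 6.83 CPM in UV (log2 −0.24 ± 0.10 SE, edgeR adjusted p = 0.187).

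The 3 genes of deoxynucleotide supply had log2 differences of 0.30 to 0.38, and none was called. Rrm1, the large subunit of ribonucleotide reductase, was at 59.7, 61.8 and 62.2 CPM in control and 74.6, 81.9 and 72.3 CPM in UV. Its groups did not overlap, and its edgeR adjusted p was 0.0529 (log2 0.32 ± 0.08 SE). Rrm2, the small subunit, had 0.38 ± 0.11 SE (edgeR adjusted p = 0.0758). Tyms, thymidylate synthase, was at 14.6, 14.7 and 15.6 CPM in control and 20, 18.4 and 17.0 CPM in UV (log2 0.30 ± 0.09 SE, edgeR adjusted p = 0.0948).

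**Figure D2:**
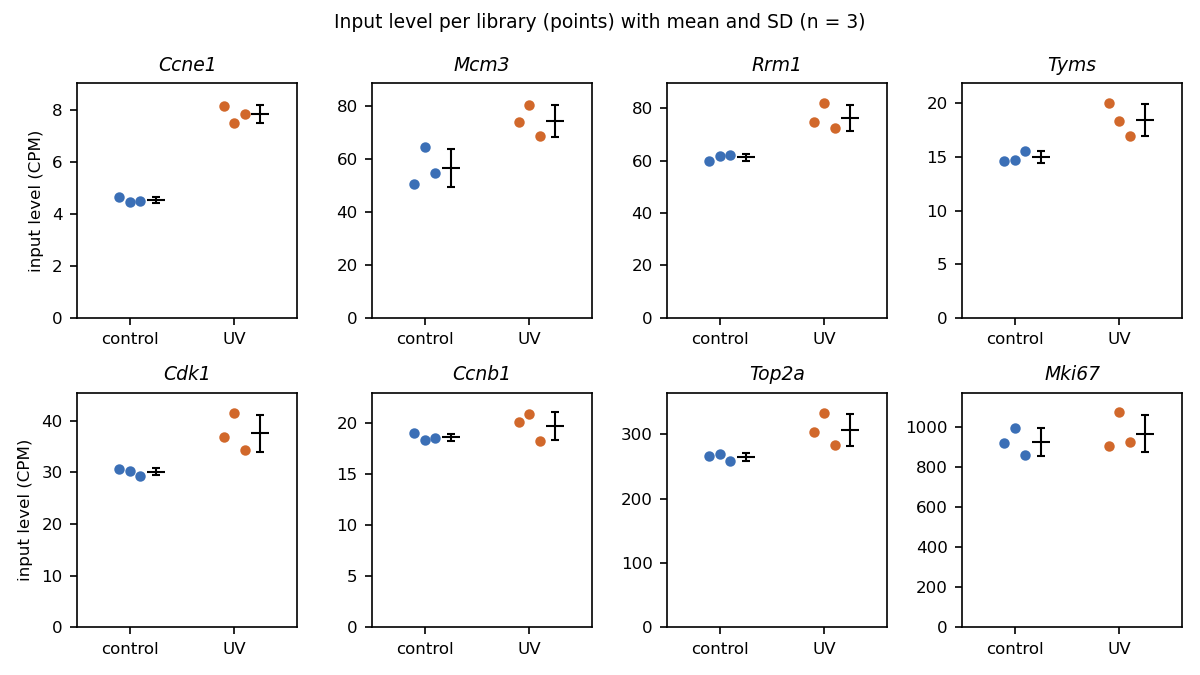
Input level in CPM for 8 members, 1 point per library in control and UV skin, with the mean and SD of 3 samples beside the points; each axis starts at 0. The UV points of Ccne1 (7.49 to 8.18 CPM) lie clear of the control points (4.47 to 4.67 CPM), while those of Ccnb1 and Mki67 overlap.

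Among the mitotic cyclins and their kinase, Cdk1 was at 30.6, 30.3 and 29.3 CPM in control and 36.9, 41.4 and 34.3 CPM in UV. All UV samples were higher, with a log2 difference of 0.32 ± 0.09 SE (edgeR adjusted p = 0.0734). Ccnb1, the gene of cyclin B1, its partner in mitosis, was at 19.0, 18.3 and 18.5 CPM against 20.1, 20.9 and 18.2 CPM, so its groups overlapped (log2 0.09, interval −0.11 to 0.28). Ccna2, the cyclin of S phase and G2, had 0.23 ± 0.08 SE (edgeR adjusted p = 0.133). Part of its exon length, 12.5%, is shared with Exosc9 on the opposite strand.

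The remaining groups act mainly in mitosis. The 6 genes of mitotic kinases and the checkpoint had a median log2 difference of 0.06, and Birc5, survivin, had the largest of them at 0.35 ± 0.10 SE (edgeR adjusted p = 0.0845). The 7 genes of spindle, kinetochore and motors had a median of 0.03 and ranged from −0.11 to 0.28. Cenpe was at 149, 155 and 144 CPM in control and 157, 178 and 152 CPM in UV (log2 0.12, interval −0.07 to 0.32). Cenpf, a large kinetochore protein, was at 206, 207 and 184 CPM and at 178, 210 and 187 CPM (log2 −0.05, interval −0.26 to 0.16). For both genes the conditions overlapped.

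Top2a was at 267, 269 and 258 CPM in control and 304, 334 and 284 CPM in UV, with no overlap and a log2 difference of 0.21 ± 0.09 SE (edgeR adjusted p = 0.174). Mki67 was at 920, 997 and 861 CPM in control and 906, 1074 and 924 CPM in UV. These values overlapped (log2 0.06 ± 0.11 SE, interval −0.18 to 0.31), so a difference above 0.31 or below −0.18 lies outside the 95% interval. Ube2c, counted with Tnnc2, ran at 316, 627 and 446 CPM in control and 305, 145 and 364 CPM in UV (log2 −0.77 ± 0.34 SE), and Tnnc2 had −0.78 ± 0.34 SE.

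In 13 of 34 members every UV input value was above every control value, against 15.5% of all genes tested, and in 1 member, Cdc6, every UV value was below, also against 15.5%. Of all genes called, 51.9% were higher in UV, and 30.9% with library size as the only scaling. Under that scaling the median of all genes moved from −0.02 to −0.12 and that of the members from 0.09 to −0.01. The members with UV values all higher were then 4 (Mcm4, Rrm1, Ccne1 and Birc5), against 8.95% of all genes. The role medians of the helicase and nucleotide genes stayed above 0 at 0.14 and 0.22, while those of the mitotic kinases and of the spindle genes turned to −0.04 and −0.06. The DESeq2 Wald test called 6 members, all higher (Ccne1, Cdk1, Mcm3, Mcm4, Rrm1 and Rrm2). It called 7.08% of the genes it tested in either direction.

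**Figure D3:**
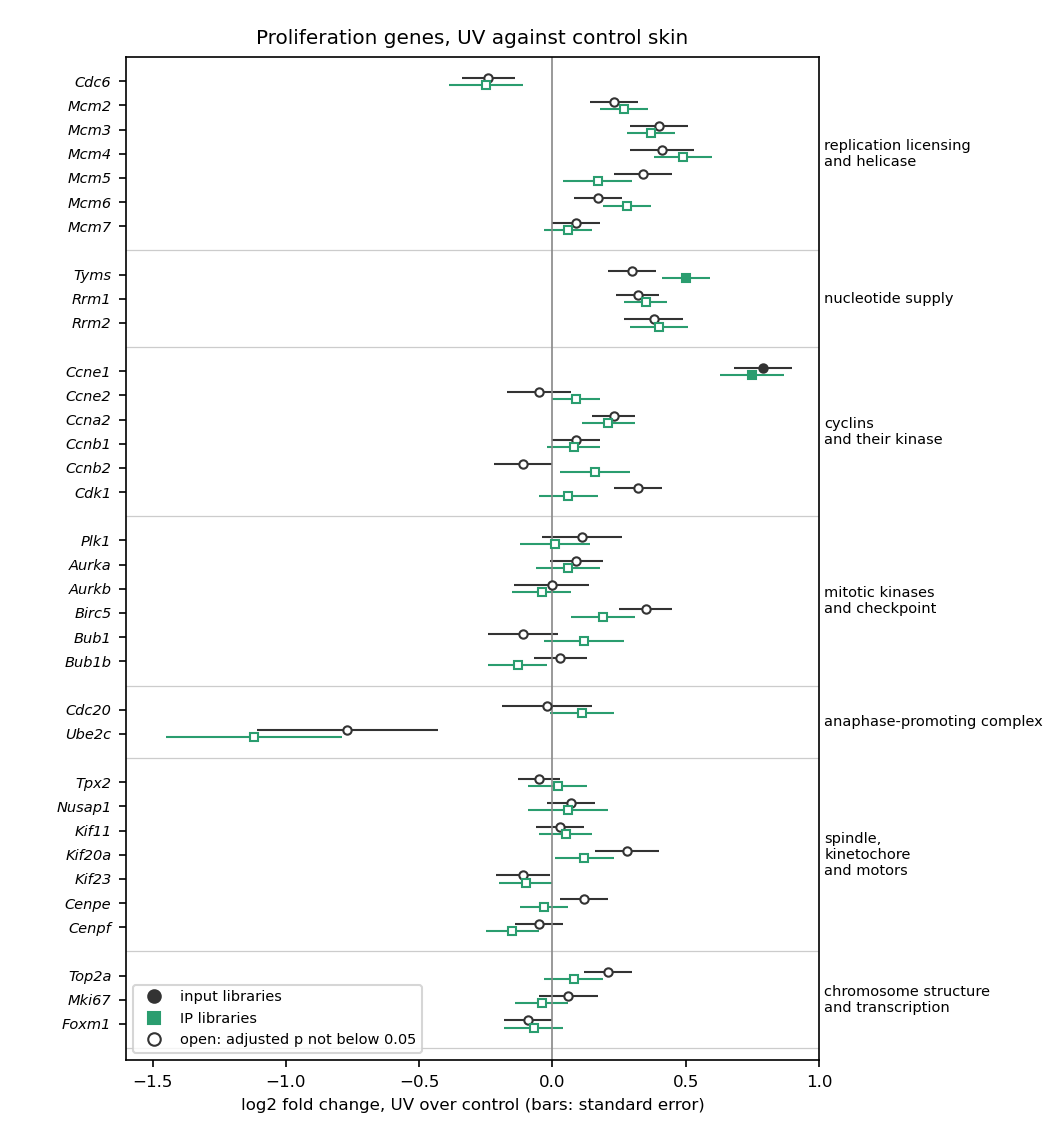
Log2 fold change of UV over control with its standard error for the 34 members, grouped by role, in input (circles) and IP libraries (squares); filled symbols have an edgeR adjusted p below 0.05. Ccne1 is filled in both kinds of library and Tyms in IP, and Ube2c, counted with Tnnc2, lies farthest to the left.

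Other genes of the cell cycle were counted from 5 pathway lists, to be read against the 5.83% of all genes called in input. The shares of the replication and mitosis lists lay near it. Of 33 further replication genes 2 rose in UV input and none fell. Among them was Lig1, the ligase that joins Okazaki fragments (log2 0.41 ± 0.08 SE, edgeR adjusted p = 0.0275). Of 46 further mitosis genes tested 2 rose: Spc25 of the kinetochore (0.44 ± 0.08 SE, edgeR adjusted p = 0.0183) and the motor gene Kifc1 (0.40 ± 0.09 SE, 0.0332). Among 18 genes of G1/S control, E2f8 rose (0.39 ± 0.09 SE, edgeR adjusted p = 0.0421) and E2f2 fell (−0.60 ± 0.14 SE, 0.0433). Among 7 CDK inhibitors, Cdkn1a, the p53 target p21, rose from 57.8 ± 2.20 to 76.8 ± 1.96 CPM (SD, n = 3; log2 0.41, edgeR adjusted p = 0.0194), and Cdkn1c, p57, fell from 8.74 ± 1.17 to 4.83 ± 0.817 CPM (log2 −0.85, edgeR adjusted p = 0.0238). None of 12 transcription regulators and anaphase-promoting complex genes was called. None of these 7 named calls held in every alternative. In each, the highest edgeR or DESeq2 adjusted p over the alternatives was above 0.05, and with library size alone Cdkn1a, E2f8, Lig1, Spc25 and Kifc1 were not called. The list medians were 0.16 for replication, 0.07 for mitosis, 0.12 for CDK inhibitors, 0.03 for the regulators and −0.04 for G1/S control.

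IP libraries give the abundance of antibody-bound fragments, and the same comparison was made in them. In edgeR's quasi-likelihood test over 22789 genes, 2 of 34 members were called, both higher with UV, against 2.5% of all genes tested. Ccne1 was at 3.54, 3.41 and 4.0 CPM in control IP and 6.05, 6.11 and 6.21 CPM in UV IP (log2 0.75 ± 0.12 SE, edgeR adjusted p = 0.0202). Tyms was at 10.1, 9.47 and 9.05 CPM in control IP and 13.3, 13.7 and 13.6 CPM in UV IP (log2 0.50 ± 0.09 SE, edgeR adjusted p = 0.0310). In both genes the conditions did not overlap. Neither was called in 5 of the 6 fits that leave out 1 sample; leaving out control sample 3 kept both, and library size alone lost Tyms. The values of 8 members were higher in every UV IP library, against 12.8% of all genes tested: Mcm2, Mcm3, Mcm4, Mcm6, Tyms, Rrm1, Rrm2 and Ccne1. In 1 member, Ube2c, counted with Tnnc2, every UV IP value was lower (log2 −1.12 ± 0.33 SE, edgeR adjusted p = 0.119). With library size alone 8 members were all higher, against 11.5% of all genes, and 1, Ube2c, was all lower, against 11.2%. None of the genes in the 5 pathway lists was called in IP.

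Mki67 in IP was at 1613, 1593 and 1451 CPM in control and 1423, 1647 and 1450 CPM in UV (log2 −0.04, interval −0.27 to 0.18). Top2a was at 243, 201 and 222 CPM and at 228, 261 and 214 CPM (log2 0.08, interval −0.16 to 0.32). Cdk1, whose input values did not overlap, did overlap in IP, at 23.7, 20.1 and 23.1 CPM and at 23.7, 25.5 and 20.6 CPM (log2 0.06, interval −0.19 to 0.31). Ccnb1 in IP stayed between 7.66 and 8.46 CPM in all 6 libraries.

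IP over input within a condition measures how strongly a transcript was enriched by the m6A antibody, relative to the average of the library. It was fitted over all 12 libraries and 25022 genes. In control skin 5 of 34 members were called higher in IP, against 24.6% of all genes, and 11 lower, against 25.8%. In UV skin 6 were higher, against 24.7%, and 12 lower, against 24.3%. The median over the members was −0.13 in control and −0.16 in UV, and −0.04 and −0.01 over all genes. With library size alone 3 members were higher and 19 lower in control, against 15.4% and 35.3% of all genes. In UV 3 were higher and 16 lower, against 18.3% and 29.8%, and the median of all genes moved to −0.29 in control and −0.16 in UV.

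The members most enriched in IP were Cenpf, Mki67 and Cenpe. Cenpf had log2 IP over input of 1.07, 0.95 and 1.04 in the control samples and 0.91, 0.94 and 0.89 in the UV samples. Mki67 had 1.00, 0.89 and 0.97 in control and 0.85, 0.83 and 0.85 in UV. Cenpe had 0.92, 0.81 and 0.85 in control and 0.71 in each UV sample. Each UV value of these 3 genes was below each control value, which held for 7 of 34 members (also Mcm5, Cdk1, Bub1b and Ube2c) and for 8.84% of all genes tested. In 1 member, Ccnb2, each UV value was higher, against 7.27% of all genes, and without the sample block none of these differences was called. These counts were made under the main scaling only, and overlap under other scalings was not counted. With library size alone the median change with UV moved from −0.00091 to 0.09 over all genes and from −0.02 to 0.08 over the members. The fitted enrichments of Cenpf, Mki67 and Cenpe were 1.02 ± 0.09, 0.95 ± 0.10 and 0.86 ± 0.08 SE in control, the highest of the 34 (edgeR adjusted p = 2.05e-06, 4.54e-06 and 2.97e-06). Bub1b, the checkpoint protein BubR1, followed at 0.44 ± 0.11 SE in control and 0.28 ± 0.11 SE in UV (edgeR adjusted p = 0.00436 and 0.0463). Rrm1 had 0.26 ± 0.08 SE and 0.29 ± 0.08 SE (edgeR adjusted p = 0.0132 and 0.00695), and neither call held with library size alone. The control call of Bub1b was also lost with library size alone, and its UV call held in 3 of 11 alternatives. Ccne2 was called in UV alone, at 0.28 ± 0.11 SE (edgeR adjusted p = 0.0469), against 0.15 in control. That call held in 4 of 11 alternatives, and the difference between the conditions was not called.

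The members depleted in IP included the B cyclins and the MCM genes. Ccnb1 had log2 IP over input of −1.12, −1.02 and −0.92 in control and −1.06, −1.09 and −0.94 in UV, and the groups overlapped. Ccnb2, the gene of cyclin B2, had −1.16 ± 0.10 SE in control and −0.90 ± 0.10 SE in UV. Mcm4 was at −1.12 ± 0.12 SE and Mcm5 at −1.03 ± 0.12 SE in control, with Mcm7 at −0.68 ± 0.08 SE and Mcm6 at −0.64 ± 0.09 SE. Mcm2 and Mcm3, subunits of the same ring, were at −0.02 and 0.07 (intervals −0.22 to 0.17 and −0.15 to 0.29), so the members of 1 complex differed in enrichment. Mcm3 turned to −0.18 with library size alone. Bub1 was at −0.94 ± 0.13 SE, and Tyms, Rrm2, Kif11 and Kif23 were called lower in both conditions at −0.24 to −0.44. The calls of these last genes held in 7 or 8 of 11 alternatives in UV and in 8 to 11 in control. Cdk1 was called lower in UV at −0.49 ± 0.10 SE and had −0.23 ± 0.10 SE in control.

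With the sample shared by IP and input as a block, 8 members were called higher and 14 lower in control, against 30% and 31.1% of all genes. In UV 7 were higher and 16 lower, against 30.4% and 30.1%. The block added Birc5, Tpx2 and Ube2c as higher and Cdc6, Cdk1 and Cdc20 as lower in control. In UV it added Tpx2 as higher and Cdc6, Plk1, Nusap1 and Top2a as lower. It lost no member that the fit without it called.

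**Figure D4:**
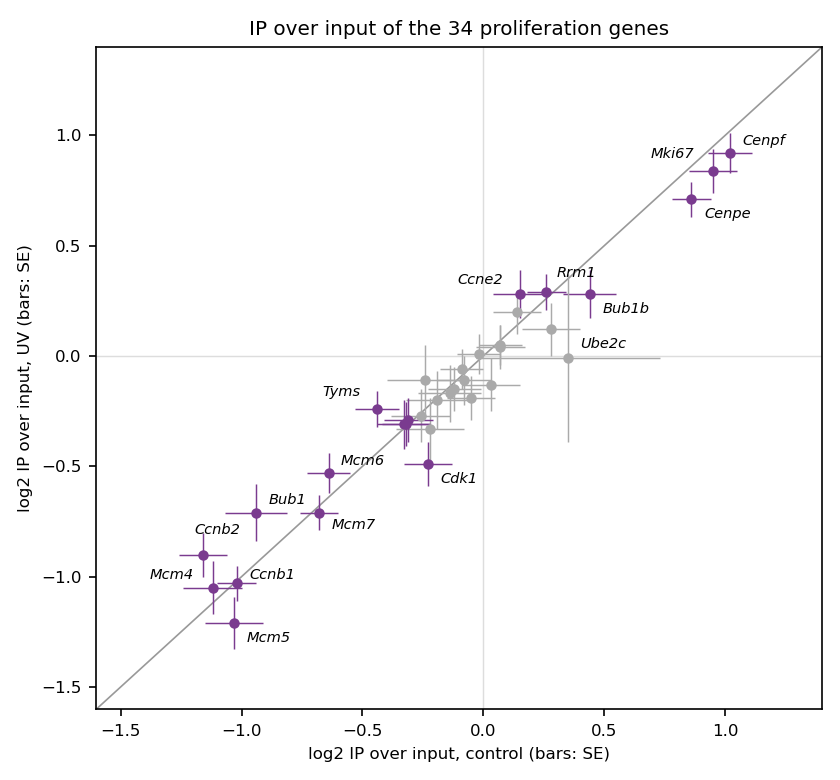
Log2 IP over input in control (x) and UV skin (y) for the 34 members, with standard errors and the line of equal values; purple members were called in at least 1 condition and grey ones in neither. Cenpf, Mki67 and Cenpe lie at the upper right and the B cyclins with Mcm4 and Mcm5 at the lower left, all near the line.

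The change with UV in IP over input asks whether m6A enrichment of a member differed with UV. In edgeR's quasi-likelihood test without the sample block, none of 34 members was called and 0 had an unadjusted p below 0.05. Of all genes tested 0.012% were called. This fit leaves out the pairing of IP and input, and the intervals below come from it. The DESeq2 Wald test called 0 members as well. The members' differences ran from −0.36 (Ube2c) to 0.26, with a median of −0.02. Mki67 had −0.11 (interval −0.41 to 0.18), Cenpf −0.11 (−0.39 to 0.18) and Cenpe −0.15 (−0.41 to 0.10). Cdk1 had −0.26 (−0.57 to 0.05), Tyms 0.20 (−0.06 to 0.46) and Ccne1 −0.04 (−0.35 to 0.28). With the sample block 1 member was called, Ube2c (log2 −0.36 ± 0.06 SE, edgeR adjusted p = 0.00141), against 1.59% of all genes, and its reads are those it shares with Tnnc2. Leaving out Ube2c leaves 0 members under the block. The block gave Mki67 −0.11 ± 0.05 SE (edgeR adjusted p = 0.399), Cenpf −0.11 ± 0.06 SE (0.511) and Cenpe −0.15 ± 0.06 SE (0.259). Cdk1 had −0.26 ± 0.09 SE (edgeR adjusted p = 0.169), Tyms 0.20 ± 0.11 SE (0.544) and Ccne1 −0.03 ± 0.16 SE (0.972). For Mki67, Cenpf, Cenpe and Cdk1 the block thus gave a smaller SE than the fit without it.

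Peaks show where on the transcripts the antibody signal lay. The deposited table held peaks on 24 of the 34 members, 53 called in the UV arm and 49 in the control arm, against 24969 and 18020 over all genes. In 17 members a UV peak and a control peak shared at least 1 base. The peaks of Ccne1, Kif11, Kif23 and Plk1 were in the UV arm only and that of Cdc6 in the control arm only, and Ccne2 and Top2a had peaks in both arms that shared no base. Ccna2, Ccnb1, Ccnb2, Cdk1, Bub1, Kif20a, Mcm4, Nusap1, Rrm2 and Tyms had none. Those 10 had log2 IP over input from −1.16 to 0.07 in control (median −0.39), against −1.03 to 1.02 (median −0.08) in the 23 other members with Ube2c left aside. Their mean input depth was 324 to 2049 reads against 304 to 46108, so part of the range of depth was not shared.

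Mki67, Cenpf and Cenpe carried 55 of the 102 peaks and 69.7% of the exon bases that members' peaks covered. On Mki67 (chr7:135689784-135716361, minus strand) peaks of either arm covered 69.4% of 10061 exon bases, and 82.4% of the covered bases were in both arms. Its exon 12 of 6836 bases held the Mki67 peak with the highest control value, chr7:135698764-135700920, at a log2 IP over input of 1.28. On Cenpf (chr1:189640606-189688086, minus strand) the share was 50.2% of 15433 bases, and on Cenpe (chr3:135212537-135273611, plus strand) 33.8% of 8620 bases. No other member had over 16.8% of its exon bases covered. The Cenpe peak with the highest log2 IP over input was in its last exon, at chr3:135273371-135273551 (1.92 in control, 2.21 in UV). Its depth was low, at 0.624 to 1.28 CPM in IP and 0.107 to 0.321 CPM in input. The control-arm Cenpe peak over exons 23 to 29 had 1.23 ± 0.09 SE in control, at 88.1 to 93.6 CPM in control IP.

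**Figure D5:**
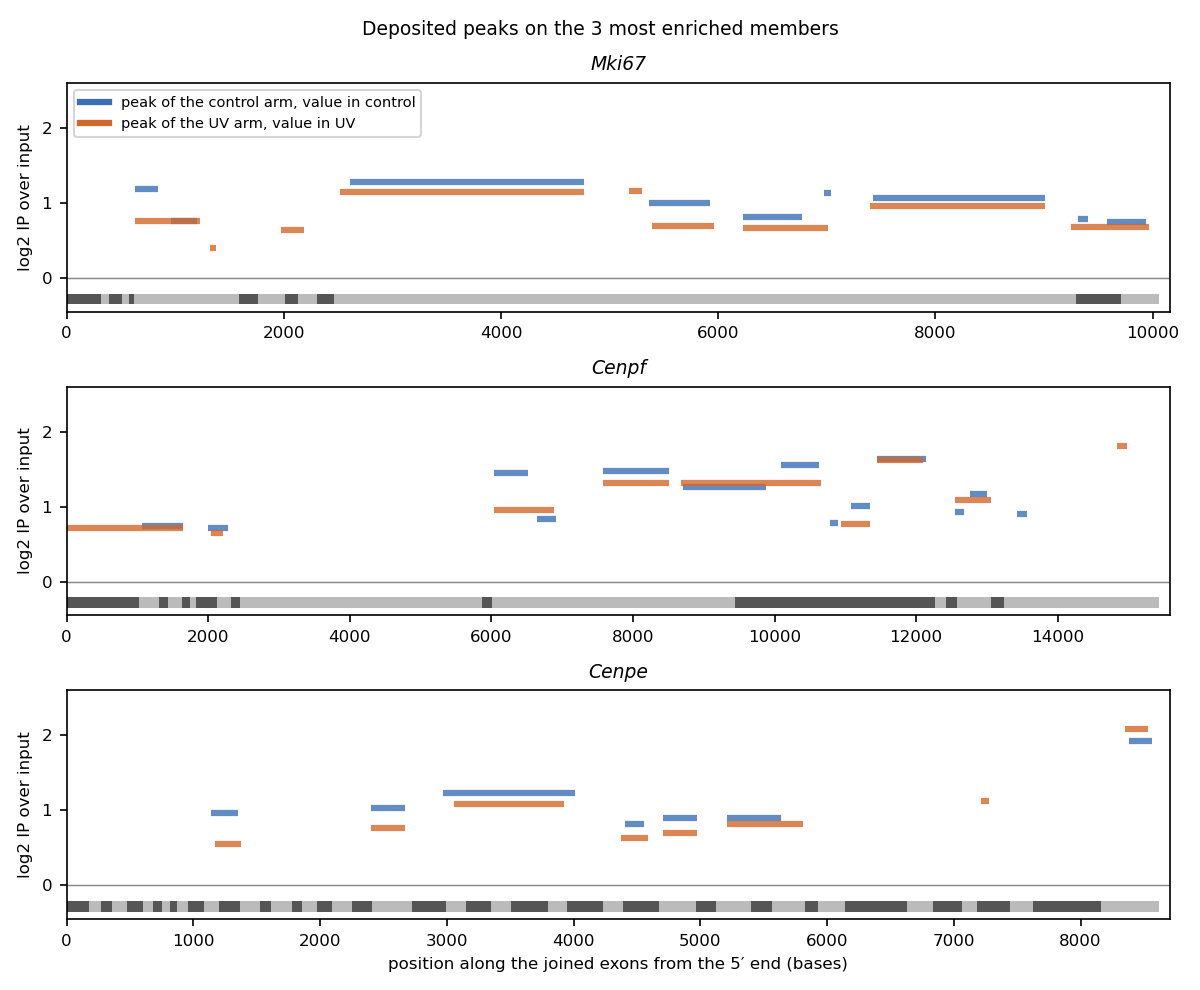
Deposited peaks on Mki67, Cenpf and Cenpe along the joined exons (bases from the 5′ end), at the log2 IP over input of the arm that called them; shaded blocks below 0 are successive exons. Control and UV peaks cover largely the same stretches, with 82.4% of the covered bases of Mki67 in both arms.

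A gene could be depleted as a whole and still hold a peak. Mcm7 had a gene-level log2 IP over input of −0.68 in control, while its peak in exon 2 (chr5:138170825-138171095, the same interval in both arms) had 1.39 in control and 1.20 in UV. Mcm6 had −0.64 and, at its peak in the last exon, 0.84 in control. Mcm3 had peaks in its last exon (1.69 in control, 1.89 in UV) and in exons 14 to 15. The single Ccne1 peak, at chr7:38098548-38099021 over exons 10 and 11 of 11, had log2 values of 0.88, 0.93 and 1.53 in control and 0.94, 0.85 and 1.34 in UV, so its signal did not differ between the conditions beyond their spread although only the UV arm called it. Of the members' peaks 46.1% met the gene's longest exon and 34.3% its last exon, against 58.5% and 55.1% of all peaks on genes of the table. These shares are weighted to Mki67, Cenpf and Cenpe, which held 55 of the 102 peaks, many entered once per arm. Few peaks of those genes met the last exon. In the other members most peaks met the last exon and most met the longest, so the lower shares do not describe them. Since peaks were called for enrichment in these libraries, these sizes are a description.

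No member peak was called for a change of IP over input, among 102 member peaks and 41273 peaks tested (0% of all called); 5 member peaks had an unadjusted p below 0.05, against 8.13% of all peaks tested, and the lowest edgeR adjusted p was 0.565. The DESeq2 Wald test called 0 member peaks. In the authors' deposited table the lowest FDR among the members' peaks was 0.738. With the sample block, which the pairing of IP and input allows, 3 member peaks were called, all lower. Of all peaks, 0.979% were called in either direction. Of these, 2 are the same stretch of Mki67 exon 12 called in each arm, chr7:135697567-135698136 in the UV arm. Its log2 IP over input was 1.00, 0.98 and 1.03 in control and 0.66, 0.68 and 0.72 in UV, and no UV value reached a control value. The change was −0.32 ± 0.08 SE (edgeR adjusted p = 0.0367 with the block, 0.585 without it). Input reads there were 66.0, 67.2 and 60.4 CPM in control and 73.3, 84.1 and 72.1 CPM in UV, and IP reads 132, 133 and 123 CPM and 116, 135 and 119 CPM.

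The third was on Top2a, chr11:98996866-98997908 over exons 29 to 30. It had log2 IP over input of 0.85, 0.43 and 0.76 in control and 0.31, 0.34 and 0.18 in UV, again without overlap (−0.41 ± 0.10 SE, edgeR adjusted p = 0.0373 with the block). The other peaks with an unadjusted p below 0.05 were not called with the block either. The Ccne2 peak in exon 13 (chr4:11203344-11203404) had a change of 2.16 ± 0.90 SE on 0 to 0.228 CPM per library, with 1 control input library at 0, and the Cenpf peak in exon 18 (chr1:189642466-189642616) had −0.59 ± 0.26 SE. Ccne2 shares 17.4% of its exon length with Ints8 on the opposite strand.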

How the data were processed

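Skin RNA from 3 control and 3 UV samples was measured as IP and input libraries, 12 in all. Reads were aligned with STAR 2.5.3a to GRCm38, per the submitters' processing notes. The sources used here give no read counter, use of strand, annotation release, antibody, peak caller or test of the authors. The authors deposited counts per gene, unnormalized, and counts per peak, with their own log2 fold changes, p-values and FDR values for peaks. Of the counts from 1 to 20, between 79.5% and 83.6% per library were even.

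Counts were tested with edgeR 4.0.16 (quasi-likelihood, TMM scaling, filterByExpr, Benjamini-Hochberg adjusted p under 0.05) in R 4.3.3, over all genes or peaks. UV against control was fitted on the 6 libraries of each kind, and IP over input and its change on all 12. DESeq2 1.42.0, library size alone, RLE factors, no filter, a replicate block and leaving out each sample were the alternatives. The test was checked on simulated counts. These had the same spread in every gene and no link between IP and input, so the check does not cover their pairing. IP and input of 1 sample share a sample label and deviated together (correlations 0.186 to 0.398), so they are paired. Between samples of a group the correlations were −0.353 to −0.082. Deviations from a group mean cancel out within the group, so these negative values are no separate evidence. Peak starts in the deposited table count from 0 and were raised by 1.

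Members, lists and promoter motifs were chosen with earlier results of these data known. Named in full were members called in a comparison of UV and control, the 5 with the highest level, Mki67, Top2a, Ccnb1, Cdk1 and members with a peak change at an unadjusted p below 0.05, and of the pathway lists the called genes, at most 4 per list; 1 called gene of the replication list is not reported here.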

Additional observations from a re-analysis of the deposited data

How the results depend on the processing

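In input, 1 member was called, and 2 with RLE factors, 3 without the low-count filter, 6 by DESeq2 and 0 to 2 when a sample was left out. In IP, 2 were called, and 1 with library size alone, 6 without the filter, 5 by DESeq2, 0 with the replicate block and 0 to 3 when a sample was left out. The change of IP over input had 0 members called, and 1 with the replicate block. Of the peaks 0 were called, and 3 with the replicate block. Control and UV samples of the same number did not deviate together (correlations −0.116 to 0.0255 in input), so the block in input (1 member) and IP joins samples that share only a number. Over all genes, input calls numbered 1404, and 2620 by DESeq2, 2152 without the filter, 713 with the replicate block and 219 to 2100 when a sample was left out. IP calls numbered 570, and 1370 by DESeq2, 1426 without the filter, 247 with the block and 67 to 1248 when a sample was left out. The change had 3 calls, and 5 with library size alone, 22 without the filter, 49 by DESeq2, 399 with the block and 0 to 7 when a sample was left out. Leaving out Ube2c, chosen after seeing the data, left 16 members called for IP over input in control and 18 in UV.

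Some small values turned sign, and the cause was not tested. With library size alone, the input values of Ccnb1 and Mki67 were −0.01 and −0.04, IP over input in control was −0.18 for Mcm3 and −0.1 for Ccne2, in UV it was −0.12 for Mcm3, and the change was 0.07 for Mcm3, 0.06 for Ccne1 and 0.08 for Ccnb1. When a sample was left out, the input value ran from −0.14 to 0.04 for Ccne2 (0.01 without UV sample 2), from −0.11 to 0.0027 for Cenpf and from −0.01 to 0.12 for Mki67, and the IP value from −0.01 to 0.13 for Cdk1 (−0.0028 without UV sample 2) and from −0.08 to 0.01 for Cenpe. IP over input ran from −0.1 to 0.03 for Top2a in control and from −0.05 to 0.03 for Ube2c in UV. The change ran from −0.12 to 0.02 for Mcm3 (0.0018 without control sample 3), from −0.09 to 0.04 for Ccne1 (0.003 without UV sample 1) and from −0.06 to 0.04 for Ccnb1 (0.01 and 0.02 without UV samples 1 and 2). Of the other values of single genes and peaks under an alternative, 982 kept direction and side of the threshold, 36 passed it and 55 no longer did. The Ccne2 peak in exon 13 had at most 0.228 CPM in any library, so depth limits its value.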
